A study of Arabidopsis thaliana with 36 samples.

Results

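The genes described here are those listed for the pAtUBQ10::GR-LhG4 line over ap1cal 12 h after dexamethasone, 90 of the 446 distinct genes listed in any of the 12 comparisons of the series. They were taken as every gene of that comparison that passed the thresholds of the deposited table, 0.05 for the adjusted p and 1 for the size of the log2 fold change, and were then split by the same comparison at the other times. Of the 90 genes, 54 were also listed at 4, 8 or 16 h and 36 were listed at 12 h alone. The fold thresholds chose the members, so their folds at 12 h are given as a description, and nothing is supported by them.

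Polyadenylated RNA of Arabidopsis shoot apical meristems (SAMs) was measured at 4, 8, 12 and 16 h in 3 lines, with 3 libraries for each line and time and 36 in all. Each biological replicate pooled several SAMs. The GR-LhG4 line was transformed with the activator under the AtUBQ10 promoter, without a target for it, and ap1cal was not transformed. A miR165a line carried the same activator and in addition a miR165a cassette behind operators that the activator binds. All lines carry the ap1-1 cal-1 mutations, through which flowers are replaced by masses of inflorescence meristems, and all, ap1cal included, received 10 µM dexamethasone once in 0.015% Silwet L-77, a surfactant. The plants of the transgenic lines were of the T2 generation. The AtUBQ10 promoter is active in nearly all cells, so the activator was not limited to a domain of the meristem, and the number of independent transformants was not given in the sources used here. The presence of the construct and any effect of its insertion or selection cannot be told apart from the effect of the activator in this comparison. For growth, the labels name long days and the methods continuous light.

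LhG4 joins the DNA-binding domain of the bacterial lac repressor to the activation domain of yeast Gal4, and the fused hormone-binding domain of the glucocorticoid receptor (GR) keeps it out of the nucleus until dexamethasone is bound. It is meant to switch on only transgenes placed behind lac operators, so a line with the activator alone serves as the control for genes that respond to it by itself. Among the listed genes were members of pathways with known triggers. In plants, low oxygen stabilizes ERF transcription factors that switch on a small core of hypoxia genes, and sugar shortage switches on genes for the breakdown and reallocation of carbon.

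The table gave 1 log2 fold change with a standard error (SE) per gene, and a mean normalized count over all 36 libraries. Values of single libraries were not used here, so the overlap of the groups and the depth of each library are not given, and the spread between the 3 libraries of a line enters only through the SE. Read from the steps between p and adjusted p, 18680 genes had been tested. At 12 h 84 genes were higher in GR-LhG4, 0.45% of those tested, and 6 were lower, 0.0321% of those tested. At the other times 55 (0.294%), 41 (0.219%) and 63 (0.337%) genes were higher at 4, 8 and 16 h. By p alone the last of the 90 members stood at position 167 of the tested genes, so 77 genes with a p at least as small were not listed for their fold. The SE at 12 h lay between 0.06 and 0.18, and was at least 0.17 for 48 of the 90 genes. It stayed in this range at low counts, with 0.148 for AT2G14247 at a mean normalized count of 9.59. It may therefore understate the sampling error of such genes, which was not tested. Marker lists were kept for shoot meristem (12 genes), leaf photosynthesis (8), anther and tapetum (6), circadian clock (9), heat and touch (6), and cell cycle (7). No gene of these was listed in either direction at 12 h. With 0.45% of tested genes higher and 0.0321% lower, lists this short would mostly hold none, so this is no sign of equal levels. The tissue itself could not be checked against its markers, since only changed genes have values.

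**Figure D1:**
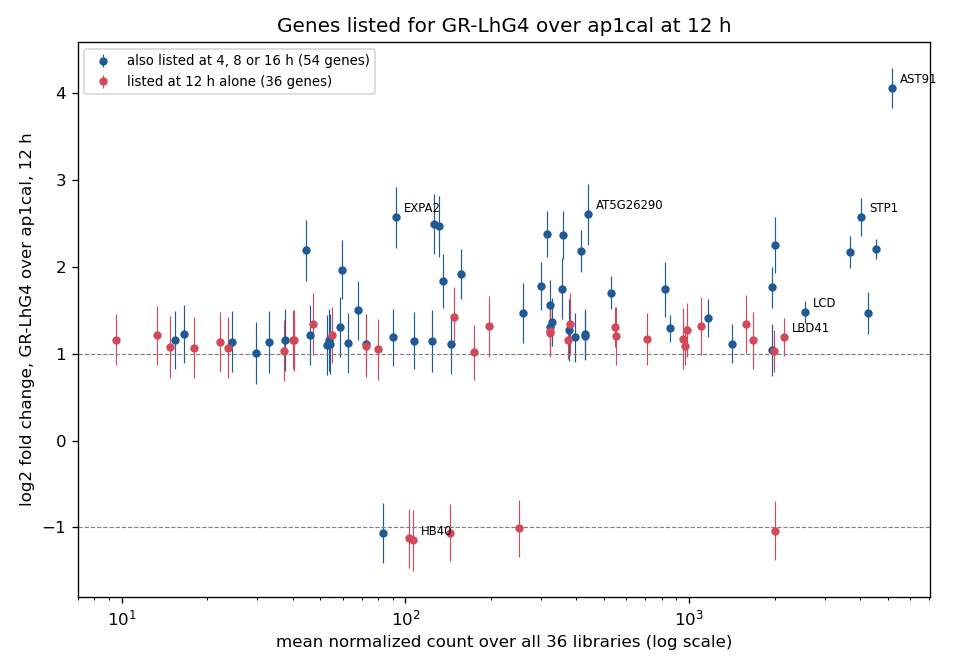
Log2 fold change of GR-LhG4 over ap1cal at 12 h (vertical axis) against the mean normalized count over the 36 libraries (horizontal axis, log scale) for the 90 listed genes. Points are the deposited estimates with 95% intervals, blue for the 54 genes also listed at another time and red for the 36 listed at 12 h alone, and dashed lines mark the fold threshold. Red points lie between 1.01 and 1.43 among the higher genes, whereas blue points reach 4.06.

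The 84 higher genes had a median log2 fold change of 1.23, a fold of 2.35. In such bulk tissue, more cells of a type and more RNA per cell cannot be told apart. The ranges of the 2 sets overlapped. The 53 higher genes that were also listed at another time had a median of 1.41 and a range of 1.01 to 4.06, and 13 of them were over 4-fold higher. The 31 higher genes listed at 12 h alone had a median of 1.17 and a range of 1.01 to 1.43, with none over 4-fold. A shared gene had passed the same fold threshold at another time too, so a higher median of that set is partly built into the split. The 95% interval of the fold lay wholly above the threshold for 30 of the 53 genes and for 3 of the 31, namely AT4G33560, XYL4 and AT1G15670. For the other higher genes listed at 12 h alone the interval reached below a log2 fold change of 1, so it took in folds just under the threshold. The interval leaves out the error of a fold at another time. A difference from a fold just under the threshold at another time therefore cannot be read from it, for the 3 named genes either. Both sets spanned a wide range of abundance, with a median mean normalized count of 280.2 for the shared genes and 185 for those at 12 h alone. The genes nearest the threshold were AT5G14360 and PATL2, both at 1.01, and BMY3 at 1.03 on the higher side. On the lower side they were NF-YA10 at -1.01, AT4G21650 at -1.04 and STR16 at -1.06. Genes just outside it had no value in the table.

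AST91 (AT1G23090), a sulfate transporter gene of chromosome 1, had the largest fold of the 90 genes. Its log2 fold change at 12 h was 4.06 ± 0.12 (SE, 3 libraries a line), a fold of 16.7, and its mean normalized count of 5165 was also the highest among the members. The adjusted p of 6.9e-248 is that of the authors' Wald test. The log2 fold change was 3.59, 3.48 and 4.25 at 4, 8 and 16 h. Thus AST91 was far above the threshold in GR-LhG4 at every time measured.

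The genes with the next largest folds had varied annotations. STP1, a cotransporter of protons and hexoses, was at 2.57 ± 0.11, and EXPA2, an expansin that loosens cell walls, at 2.57 ± 0.18. AT5G26290, a TRAF-like gene, was at 2.61 ± 0.18, and AT3G19430, a gene related to late embryogenesis abundant proteins, at 2.50 ± 0.18. ALPHA DOX2, a dioxygenase of fatty acids, was at 2.37 ± 0.14, and AT3G44220, annotated as a late embryogenesis abundant glycoprotein, at 2.37 ± 0.14. AT4G14819, of unknown function, was at 2.47 ± 0.18. These 8 genes, with AST91, were listed at all 4 times. The next in size were AT3G05640, a protein phosphatase 2C gene, at 2.26, and AT1G80280, an alpha/beta-hydrolase gene with the smallest SE of the table, at 2.21 ± 0.06. They were followed by PUM11, an RNA-binding Pumilio protein gene, at 2.19, the protein kinase gene AT1G70430 at 2.18 and the pectin lyase-like gene AT3G61490 at 2.17. The last of the 15 largest were AT5G65130, an ERF/AP2 transcription factor gene of the DREB subfamily, at 1.97 and the receptor-like protein gene RLP33 at 1.92.

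The activator binds lac operators, and the DNA before the listed genes was therefore searched for the lac operator heptamer TGTGAGC on both strands in the 250 bases before the annotated start (RefSeq, TAIR10.1). It was present before 1 of the 84 higher genes and none of the 6 lower ones, against 343 of 27444 protein-coding genes, 1.25%. The 27444 are all annotated protein-coding genes, tested or not, while the 84 include a long non-coding RNA gene and a pseudogene. The window of AST91 is shown because it belongs to the gene with the largest fold, and that of AT1G29660, a GDSL-like lipase gene with a log2 fold change of 1.15, because it holds the match. They lie on chr1:8189235-8189484 (minus strand) and chr1:10371425-10371674 (plus strand), and capitals mark the heptamer, which the AST91 window does not hold.
AST91: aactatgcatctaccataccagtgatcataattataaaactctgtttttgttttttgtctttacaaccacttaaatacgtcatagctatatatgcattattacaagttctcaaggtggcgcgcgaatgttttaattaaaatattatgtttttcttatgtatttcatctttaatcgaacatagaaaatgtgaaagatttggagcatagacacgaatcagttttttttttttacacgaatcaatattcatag
AT1G29660: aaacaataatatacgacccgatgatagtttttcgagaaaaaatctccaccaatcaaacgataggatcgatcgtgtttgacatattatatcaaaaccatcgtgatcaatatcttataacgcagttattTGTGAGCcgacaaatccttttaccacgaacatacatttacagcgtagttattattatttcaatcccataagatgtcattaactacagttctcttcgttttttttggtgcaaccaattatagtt
A match says only that these letters are there, and no match says nothing about binding of the activator elsewhere.

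Of the 54 shared genes, 36 were listed at all 4 times, 11 at 12 and 16 h, 5 at 4, 12 and 16 h, 1 at 8, 12 and 16 h, and 1, the pseudogene AT1G45120, at 4 and 12 h. Thus the 12 h table held 53 of the 63 genes of 16 h (84.1%), 37 of the 42 genes of 8 h (88.1%) and 42 of the 56 genes of 4 h (75%). The same genes were 58.9%, 41.1% and 46.7% of the 12 h table. Every gene listed at 12 h and at another time had the same direction at both. Each time has its own libraries of both lines, so these tables share no library. Of the genes at all 4 times, 15 had their largest fold at the first time, 4 h. The 8 h fold was largest for 4 genes, the 12 h fold for 5 and the 16 h fold for 12. The median difference of the higher genes, 12 h minus the other time and over genes past the threshold at both, was -0.03 against 4 h, 0.05 against 8 h and -0.08 against 16 h.

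Differences between 12 h and another time were tested for all 132 pairs in which a gene was listed at both, by a two-sided Wald test on the deposited SEs with Benjamini-Hochberg adjustment. Of these, 10 passed an adjusted p of 0.05, 8 of 42 against 4 h, 2 of 37 against 8 h and none of 53 against 16 h. At an unadjusted p under 0.05 there were 25. Both folds of a pair had passed the fold threshold, and those of 12 h had chosen the members. The p-values therefore only set the difference between 2 listed folds against its errors, and are no independent support for a change over time. None of the 10 passed with SEs enlarged 1.5 times.

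Of the genes past the test against 4 h, 5 had larger folds at 12 h. EXPA2 was at 1.44, 1.81, 2.57 and 2.80 at 4, 8, 12 and 16 h. Its difference was 1.13 ± 0.25 against 4 h (SE, adjusted p = 0.000575) and 0.76 ± 0.25 against 8 h (adjusted p = 0.0371). PUM11 was at 1.21, 1.61, 2.19 and 2.87 at 4, 8, 12 and 16 h, and its difference from 4 h was 0.98 ± 0.25 (adjusted p = 0.00325). AT3G19430 was at 1.53, 2.06, 2.50 and 2.49, with a difference from 4 h of 0.96 ± 0.25 (adjusted p = 0.00325).

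NAC1, a transcription factor gene of meristem formation and auxin-dependent lateral roots, was at 1.14, 1.93, 1.84 and 2.05. Its difference from 4 h was 0.70 ± 0.23 (adjusted p = 0.0281). ERD5, the mitochondrial proline oxidase gene, was at 1.01, 1.74 and 1.34 at 4, 12 and 16 h and was not listed at 8 h, with a difference from 4 h of 0.73 ± 0.23 (adjusted p = 0.0197). AST91 exceeded its own fold of 8 h by 0.58 ± 0.17 (adjusted p = 0.0105).

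In the opposite direction, 3 genes had smaller folds at 12 h than at 4 h. GA3OX1, which encodes the enzyme of the last step to bioactive gibberellins, was at 2.25, 1.34, 1.16 and 1.22 at 4, 8, 12 and 16 h. The difference from 4 h was -1.10 ± 0.25 (adjusted p = 0.000575). AT3G61490 was at 2.71, 2.40, 2.17 and 2.04, a difference from 4 h of -0.54 ± 0.14 (adjusted p = 0.00304). AT1G80280 was at 2.48, 2.13, 2.21 and 2.12, a difference from 4 h of -0.27 ± 0.08 (adjusted p = 0.0121).

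**Figure D2:**
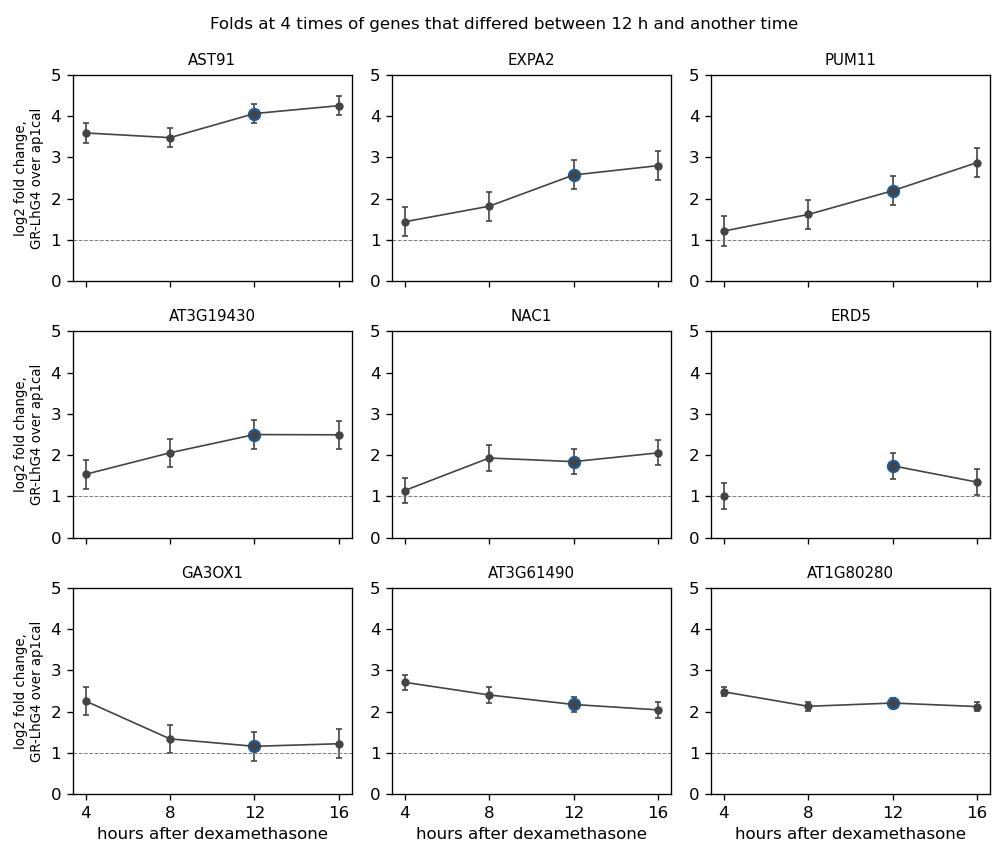
Log2 fold change of GR-LhG4 over ap1cal (vertical axes, same scale in all panels) at 4, 8, 12 and 16 h after dexamethasone (horizontal axes). Panels are the 9 genes past the Wald test of 12 h against another time, which used the folds that had chosen the members. Points are deposited estimates with 95% intervals, the larger blue point marks 12 h, and the dashed line is the fold threshold. The folds of AST91, EXPA2, PUM11, AT3G19430, NAC1 and ERD5 were higher at 12 h than at an earlier time, and those of GA3OX1, AT3G61490 and AT1G80280 were lower than at 4 h. ERD5 has no point at 8 h because it was not listed there.

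Of the 11 genes listed at 12 and 16 h, AT5G61590 (DEWAX), an ERF transcription factor gene that represses wax synthesis, was at 1.56 ± 0.15 at 12 h and 1.06 at 16 h. SUC1, a proton symporter of sucrose, was at 1.47 ± 0.12 at 12 h and 1.02 at 16 h, and NAT8, a nucleobase-ascorbate transporter gene, at 1.41 ± 0.11 at 12 h and 1.61 at 16 h. AST56, another sulfate transporter gene, was at 1.11 ± 0.18 at 12 h and 1.14 at 16 h. None of these differences passed the test.

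Of the 36 genes listed at 12 h alone, 9 were on a list of 34 hypoxia genes and 8 on a list of 36 carbon starvation genes, 17 in all, and the other 19 were on neither. The lists were drawn up with earlier results of these data known, so their counts describe the members and are no evidence of a response.

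Of the hypoxia list, 9 of 34 genes were higher in GR-LhG4 at 12 h (26.5%, against 0.45% of all tested genes) and none was lower, with a median log2 fold change of 1.19. None of the 34 was listed at 4, 8 or 16 h. LBD41, a LOB-domain transcription factor gene and the most abundant of the 9 with a mean normalized count of 2149, was at 1.19 ± 0.11 (adjusted p = 8.2e-23). AT3G10040 (HRA1), a transcription factor that dampens the hypoxia response, was 2.30-fold higher (log2 SE 0.17, adjusted p = 5.65e-10). FTM1 (AT1G43800, also SAD6), a stearoyl-acyl carrier protein desaturase gene, was at 1.15 ± 0.17 (adjusted p = 2.67e-09). The wound-responsive family genes AT4G33560, AT4G10265 and AT4G10270 were at 1.43 ± 0.17, 1.31 ± 0.18 and 1.17 ± 0.15. AT4G24110, AT2G14247 and AT1G33055, without a described function in the table, were at 1.34 ± 0.18, 1.16 ± 0.15 and 1.07 ± 0.18. AT2G14247 had the lowest mean normalized count of all members, 9.59. The enzymes of fermentation and sucrose cleavage on the list, ADH1, PDC1, PDC2, SUS1 and SUS4, were not listed at 12 h, nor were the hypoxia regulators HRE1 and HRE2 or the phytoglobin PGB1.

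Of the carbon starvation list, 10 of 36 genes were higher in GR-LhG4 at 12 h (27.8%, against 0.45% of all tested genes) and none was lower, with a median of 1.29. Of these STP1 and ERD5 were listed at other times too. The other 8 were listed at 12 h alone, between 1.03 and 1.34. AT1G15670 (KMD2), an F-box gene of the KISS ME DEADLY family, was at 1.31 ± 0.12 (adjusted p = 4.13e-25), and DIN10, a raffinose synthase family gene of the dark-inducible class, at 1.24 ± 0.13 (adjusted p = 7.07e-19). XYL4, a beta-D-xylosidase gene, was at 1.34 ± 0.17, and BMY3 (BAM9), a putative beta-amylase gene, at 1.03 ± 0.12. AT2G20670, of unknown function, was at 1.34 ± 0.18, the aspartyl protease gene AT5G19120 at 1.27 ± 0.16, the chloroplast thioredoxin gene ACHT5 at 1.26 ± 0.15 and AT5G21940 at 1.17 ± 0.18. Well-known members such as DIN1, DIN6, BZIP1, DRM1 and BT2 were not listed.

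**Figure D3:**
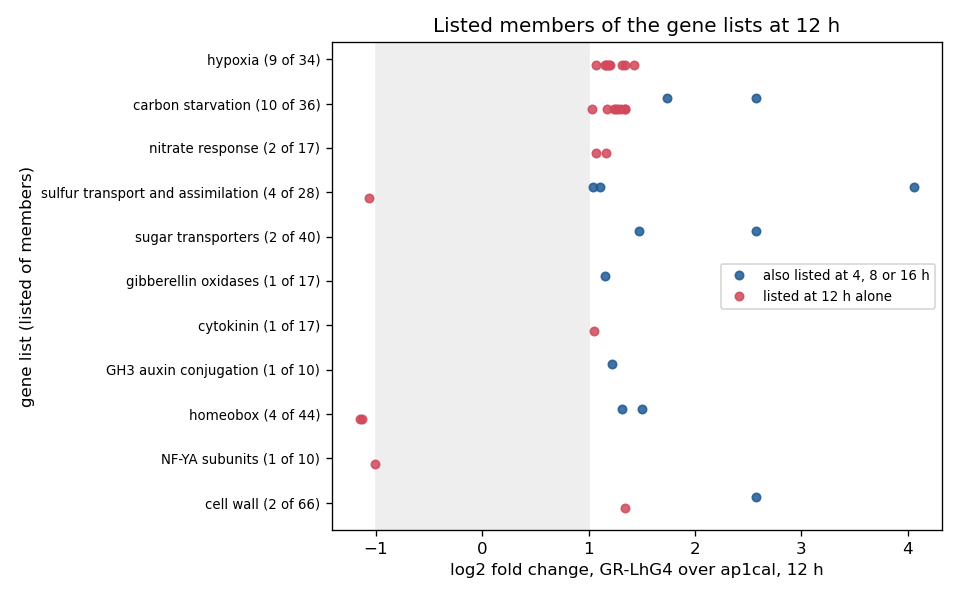
Log2 fold change of GR-LhG4 over ap1cal at 12 h (horizontal axis) for the listed members of each gene list (vertical axis, with the number listed of all members), blue for genes also listed at another time and red for genes at 12 h alone. The grey band is the range below the fold threshold, where no gene has a value. All 9 hypoxia genes and 8 of the 10 carbon starvation genes are red.

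TATCCA, a short sequence known from promoters of genes repressed by sugar, was in the 250 bases before 18 of the 84 higher genes (21.4%). The share over all annotated protein-coding genes, tested or not, was 13.6%. Of the 10 higher genes of the carbon starvation list 5 held it, namely STP1, AT2G20670, AT5G19120, ACHT5 and BMY3. It was not the only motif before these 10 genes. The W-box core TTGACC was before 4 of them (40%, against 12.2% of protein-coding genes), and CACGTG and ACTCAT before 2 each. By set TTGACC was before 6 of the 31 genes at 12 h alone (19.4%) and 7 of the 53 shared genes (13.2%). TATCCA was before 8 of the 31 genes at 12 h alone (25.8%), 10 of the 53 shared genes (18.9%) and 2 of the 6 lower genes. The windows of STP1, ACHT5 and AT2G20670 are shown because they carry this match in 1 shared gene and in 2 genes at 12 h alone, and ACHT5 holds it 4 times. They lie on chr1:3776986-3777235 (plus strand), chr5:24707195-24707444 (plus strand) and chr2:8913748-8913997 (minus strand), and capitals mark TATCCA or its reverse complement TGGATA.
STP1: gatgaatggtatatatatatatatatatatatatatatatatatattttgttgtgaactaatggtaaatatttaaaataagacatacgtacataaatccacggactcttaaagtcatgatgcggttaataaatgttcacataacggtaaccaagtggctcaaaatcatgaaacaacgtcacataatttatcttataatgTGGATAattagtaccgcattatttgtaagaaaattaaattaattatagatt
ACHT5: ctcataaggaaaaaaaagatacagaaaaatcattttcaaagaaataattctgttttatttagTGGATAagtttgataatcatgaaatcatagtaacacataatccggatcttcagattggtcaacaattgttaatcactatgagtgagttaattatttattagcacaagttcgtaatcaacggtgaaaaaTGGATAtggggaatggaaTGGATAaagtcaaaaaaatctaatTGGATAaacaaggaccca
AT2G20670: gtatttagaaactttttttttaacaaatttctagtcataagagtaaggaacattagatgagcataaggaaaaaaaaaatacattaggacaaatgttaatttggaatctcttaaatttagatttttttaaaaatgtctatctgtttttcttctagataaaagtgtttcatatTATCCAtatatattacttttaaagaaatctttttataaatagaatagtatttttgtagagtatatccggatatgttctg
These are counts of letters and not of sites in use.

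The other motifs were counted in the same windows and set against the same annotated protein-coding genes, tested or not. The G-box CACGTG was before 7 of the 84 higher genes (8.33%, against 6.49% of all), ACTCAT before 7 (8.33%, against 12.3%) and the W-box core TTGACC before 13 (15.5%, against 12.2%). GCCGCC was before 2 (2.38%, against 1.87%), CCGAC before 10 (11.9%, against 12%), and the evening element AAAATATCT before 1 (1.19%, against 2.36%). GAGCGCTC was before none, against 16 of 27444 genes (0.0583%), a share so low that no match among 84 genes says little.

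Other genes at 12 h alone were single members of further lists or of none. CKX5, which degrades cytokinins, was at 1.05 ± 0.18 (adjusted p = 5.27e-07) and was the 1 gene listed of 17 on the cytokinin list, against 0.45% of all tested genes higher, and PYL6, an abscisic acid receptor gene, was at 1.04 ± 0.18. BT5, a BTB and TAZ domain gene, was at 1.16 ± 0.17, and AT1G25550, a myb-like transcription factor gene, at 1.07 ± 0.18. These were the 2 members listed of 17 nitrate response genes, against the same 0.45%. WRKY49, a transcription factor gene with a mean normalized count of only 13.4, was at 1.21 ± 0.17, and AT4G24026, without a description, at 1.21 ± 0.17. AT5G64572, a long non-coding RNA gene, was at 1.32 ± 0.17.

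All genes lower in GR-LhG4 were near the threshold, and 5 of the 6 were listed at 12 h alone. HB40, a homeodomain-leucine zipper gene of class I, was at -1.15 ± 0.18 (adjusted p = 3.82e-08), and BLH5, a BEL1-like homeodomain gene, at -1.13 ± 0.18 (adjusted p = 2.09e-08). NF-YA10, a subunit of the CCAAT-binding factor NF-Y, was at -1.01 ± 0.17 and was the 1 listed of 10 NF-YA genes, against 0.0321% of all tested genes lower. STR16, a sulfurtransferase gene, was at -1.06 ± 0.17, and the subtilase gene AT4G21650, the most abundant of the 6, at -1.04 ± 0.17. The pseudogene AT1G45120 was at -1.06 ± 0.18 at 12 h and at -1.34 at 4 h. Of the 44 genes on the homeobox list 2 were lower and 2 were higher, against 0.0321% lower and 0.45% higher among all tested genes. The higher ones were WOX14 at 1.31 ± 0.17, a WUSCHEL-related gene, and HDG7, of HD-ZIP class IV, which was 2.82-fold higher (log2 SE 0.17), and both were listed at all 4 times.

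The remaining lists held few listed members, and their counts stand beside the 0.45% of all tested genes that were higher and the 0.0321% that were lower. Of 28 genes of sulfur transport and assimilation 3 were higher, namely AST91, AST56 and SERAT2;2, the mitochondrial serine acetyltransferase gene, at 1.04 ± 0.15, and STR16 was lower. Neither the APR reductase genes nor the sulfate transporters of the SULTR1 group were listed. Of 40 sugar transporter genes STP1 and SUC1 were higher. Of 17 gibberellin oxidase genes GA3OX1 was higher, and of 10 GH3 auxin-conjugating genes GH3.17, an amido synthase for indole-3-acetic acid, was at 1.22 ± 0.15. Of 66 cell wall genes EXPA2 and XYL4 were higher.

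The miR165a line carries the same activator, and its comparisons show which of the members were listed in a second line. At 4, 8 and 16 h, 0.345%, 0.507% and 0.867% of 19714 tested genes were higher in miR165a than in ap1cal. Of the 54 shared genes 50 (92.6%) were listed for miR165a over ap1cal at one of those times, all 50 with the direction of GR-LhG4 at 12 h. Of the 36 genes at 12 h alone 2 were (5.56%), AT1G15670 at 1.05 and AT1G61170, without a description, at 1.18, both at 16 h. These libraries are not those of 12 h, but their ap1cal libraries are the same that decided whether a gene was listed for GR-LhG4 at those times, so the counts of the 2 sets are not independent of the split.

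At 12 h itself, 0.654% of tested genes were higher in miR165a than in ap1cal, and 45 of the 54 shared genes and 5 of the 36 genes at 12 h alone were listed. This comparison uses the same ap1cal libraries as the 12 h table. AST91 was at 5.21 in miR165a, ALPHA DOX2 at 2.93, EXPA2 at 2.78 and GA3OX1 at 2.60. The 5 genes at 12 h alone were AT2G20670 at 1.60, AT1G61170 at 1.13, WRKY49 at 1.12, AT5G21940 at 1.09 and AT1G15670 at 1.06. The first, the fourth and the last of these were on the carbon starvation list, whereas no gene of the hypoxia list was listed for miR165a over ap1cal at 12 h.

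Between the 2 lines that carry the activator, 122 of 19714 tested genes were listed at 12 h in either direction. Of these, 68 were lower in miR165a than in GR-LhG4, 0.345% of those tested. Of the 36 genes at 12 h alone 13 were listed in this comparison, all in the direction opposite to that of GR-LhG4 over ap1cal. Of the 54 shared genes 5 were listed, 1 opposite (AT1G45120, at 1.60) and 4 in the same direction, namely AST91 at 1.15, AT3G44220 at 1.48, GA3OX1 at 1.44 and AT1G55950, a storekeeper-related gene, at 1.33. Of the 9 listed hypoxia genes 8 were lower in miR165a than in GR-LhG4, all except LBD41, from -1.15 for AT2G14247 to -1.61 for AT4G10265. The others of the 13 were AT4G24026 at -1.24, the peroxidase gene AT4G25980 at -1.43, CKX5 at -1.03, BLH5 at 1.28 and HB40 at 1.05.

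For these 13 genes the fold of miR165a over ap1cal at 12 h was taken as the sum of the 2 listed log2 fold changes. In all 17 cases in the series where all 3 comparisons of a time were listed, this sum equalled the third value within 1.1e-14. The authors' folds of a time thus add by construction, and this equality is no check on the genes. The calculated values lay between -0.29 and 0.15. For AT4G10265 the fold was 1.31 in GR-LhG4 and -0.29 in miR165a, and for AT4G24110 it was 1.34 in GR-LhG4 and -0.25 in miR165a. For CKX5 it was 1.05 in GR-LhG4 and 0.02 in miR165a, and for HB40 -1.15 in GR-LhG4 and -0.10 in miR165a. These genes had passed the fold threshold in 2 comparisons that both contain the GR-LhG4 libraries of 12 h, with opposite signs, so a sum near 0 follows in part from how they were chosen and is given as a description. Whether 1 of these 3 libraries carries the difference was not tested.

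**Figure D4:**
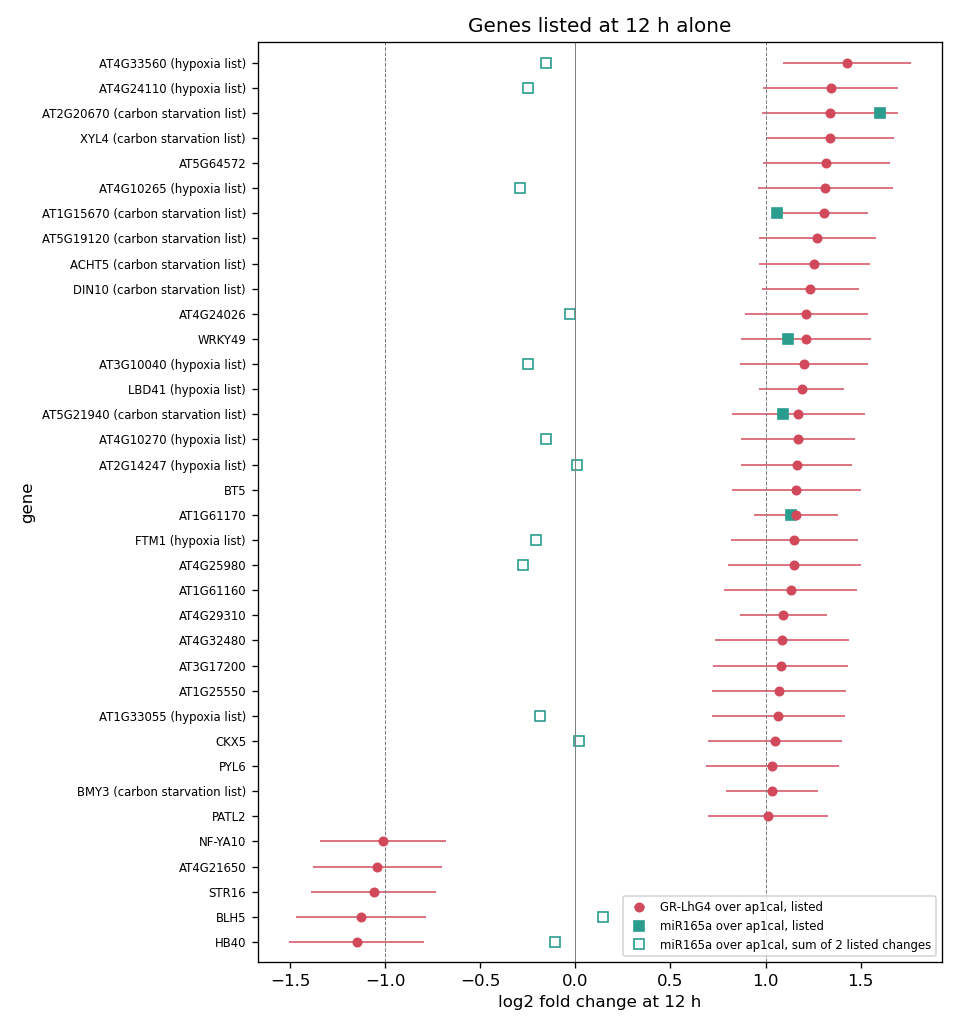
Log2 fold change at 12 h (horizontal axis) of the 36 genes listed at 12 h alone (vertical axis). Red points with 95% intervals are GR-LhG4 over ap1cal, filled green squares are listed values of miR165a over ap1cal and open green squares are the sum of 2 listed changes, without an error. Dashed lines mark the fold threshold. The 13 open squares lie between -0.29 and 0.15, while the 5 filled squares lie between 1.06 and 1.60.

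The 90 genes were spread over all chromosomes, with 25 on chromosome 1, 7 on chromosome 2, 14 on chromosome 3, 19 on chromosome 4 and 25 on chromosome 5. In 8 pairs, 16 genes, the annotated starts lay within 20 kb, and both genes of each pair were higher, as were 84 of the 90 members. The same counts were not taken over all genes, so those of chromosomes and pairs only describe the members. PEN1, a triterpene synthase gene, and CYP705A2, a cytochrome P450 gene, have starts 2.23 kb apart on chromosome 4 and were at 1.16 ± 0.17 and 1.14 ± 0.18, and both were listed at 16 h too. AT4G10265 and AT4G10270 of the wound-responsive family are divergent, 1.07 kb apart. AT4G14815, a lipid-transfer protein family gene, and AT4G14819 lie 2.22 kb apart at 1.23 and 2.47. The acyl-transferase genes AT5G39080 and AT5G39090 lie 2.05 kb apart at 1.11 each, and AT3G05640 and RLP33 8.9 kb apart at 2.26 and 1.92. AT3G14395 and GOX2, a glycolate oxidase gene, lie 7.36 kb apart at 1.27 and 1.11, and AT1G61160 and AT1G61170 3.29 kb apart at 1.13 and 1.16.

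XYL4 and AT5G64572 overlap on opposite strands over 1436 bases of chromosome 5, 25810298 to 25811733 in TAIR10.1, and were at 1.34 and 1.32. The library kit marks strand, but the strand setting of the counting was not given in the sources used here, so the 2 signals cannot be told apart. Neighbouring genes of 1 family, AT4G10265 with AT4G10270 and AT5G39080 with AT5G39090, may share reads, which was not tested. By annotation 87 of the 90 genes were protein-coding, and the others were AT5G64572 and the pseudogenes AT3G17200, at 1.08 ± 0.18, and AT1G45120.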

How the data were processed

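RNA-Seq of SAMs of 3 lines at 4 times (36 libraries) was used through the authors' 12 tables of comparisons. According to the methods and labels, the authors checked read quality by FastQC, trimmed by cutadapt, mapped to TAIR10 by TopHat, counted reads in exons by HTSeq and used DESeq2 to compare lines. Versions were not given in the sources used here. The deposited signal is the authors' mean normalized count over all 36 libraries. The deposited log2 fold changes and SEs are those of the authors' model. The deposited score (Wald statistic) is the authors' ratio of the 2. Each deposited p-value, raw or adjusted, is the authors' too. Whether folds were shrunken was not given in the sources used here. No SE in the 12 comparisons was above 0.183, at low counts too. Shrinkage would make the folds and SEs of genes with low counts smaller, which was not tested.

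The authors' fold changes were used as they are because the members are defined by them, and no count model could be fitted, which gives no depth per sample. The number of tested genes was taken as the value that makes rank = number × p / adjusted p whole (within 1e-06 of it for 95.5% of members). Wald tests used Python 3.11.15, numpy 2.4.6 and scipy 1.17.1 and treat times as independent. They were tested on simulated folds with known errors and no fold threshold, so the simulation does not cover pairs chosen by their folds. All 90 genes matched RefSeq TAIR10.1, a build with the nuclear chromosome lengths of TAIR10. Named genes were the 15 largest rises overall and at 12 h alone, all lower genes, all listed list members, genes with a time difference, those nearest the threshold and close pairs. Others named, such as AT1G29660, the genes of 12 and 16 h, PYL6 and list members without a value, were chosen after their values were seen. The members and the 17 lists were chosen with earlier results of these data known. Alternatives tried were stricter thresholds, a mean normalized count of 50 or more, only protein-coding genes, fewer times, Bonferroni adjustment, larger SEs and promoter windows with 50 bases after the start.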

Additional observations from a re-analysis of the deposited data

Results flagged for a closer look

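The fold of GR-LhG4 over ap1cal at 12 h was set against that of another time in 132 pairs. By a Wald test with Benjamini-Hochberg adjustment 10 pairs passed, in 9 genes, and none of the 10 passed with SEs enlarged 1.5 times. The difference, 12 h minus 4 h on the log2 scale, was 1.13 for EXPA2, 0.976 for PUM11, 0.963 for AT3G19430, 0.733 for ERD5 and 0.70 for NAC1. It was -1.10 for GA3OX1, -0.538 for AT3G61490 and -0.272 for AT1G80280. Against 8 h it was 0.584 for AST91 and 0.757 for EXPA2. Both folds of a pair had passed the fold threshold, so the p-values are no independent support for a change over time. Each value compares 2 estimates from 3 libraries a line and time, and none of these genes was past the test against 16 h.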

How the results depend on the processing

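Of 25 alternatives over 8 counts, 16 stayed within 1.5 times of the value given. With a log2 fold change of 1.5 or more in size, 22 genes were higher, 0 lower and 0 listed at 12 h alone, and with an adjusted p of at most 1e-10, 51 were higher and 0 lower. Without 16 h, 0 genes at 12 h alone were listed for miR165a over ap1cal at the other times left, 4 and 8 h. Of the 10 time differences by Wald test, 5 passed a Bonferroni adjustment (EXPA2, GA3OX1, AT3G61490, PUM11 and AT3G19430, all against 4 h). With standard errors enlarged 1.5 times 0 passed, 10 had an unadjusted p under 0.05 and the smallest adjusted p was 0.2. With a log2 fold change of at least 1.2, 4 hypoxia list genes remained above it.

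No paired analysis was possible because the tables hold 1 estimate per comparison and no value per library, and replicates could not be left out for the same reason. Genes outside a table missed a threshold by an unknown margin, so 12 h alone describes the lists and not a tested absence at other times.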
